A study of Mus musculus with 2 samples.

Results

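The genes described here were 46 genes of the sarcomere and its Z-disc, out of 32285 genes in each matrix. They were listed by name and function: the alpha actins, tropomyosins, troponins, myosin light chains and myosin binding proteins, titin, nebulin, the alpha actinins, myomesins and myozenins, and a set of Z-disc, thin filament cap and chaperone genes. They included 15 families of related isoforms, in most of them an adult fast member beside a slow, cardiac or embryonic one.

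The data were single-cell RNA-seq libraries of plantaris muscle from Pax7rtTA; TRE-H2B-GFP mice, 1 library after sham surgery and 1 after synergist ablation (mechanical overload, MOV). In these mice the doxycycline-dependent activator is made under the control of Pax7, so that both libraries carry the activator and the H2B-GFP reporter. Mice were 26 weeks old, drank doxycycline at 2.0 mg/ml in sucrose water for 2 weeks, and were taken 5 days after surgery. Mononuclear cells were sorted with antibodies to VCAM, CD31, CD45 and Sca1, and the sort aimed at muscle stem cells (MuSCs). With 1 library per condition there was no spread between animals, no test and no p-value, and all 95% intervals below cover counting error only.

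The sarcomere is the contractile unit of striated muscle, in which myosin thick filaments slide along actin thin filaments anchored at the Z-disc. Troponin C binds calcium, troponin I inhibits the filament at rest and troponin T holds the complex on tropomyosin, and each has fast, slow or cardiac versions. When MuSCs differentiate they withdraw from the cell cycle under Myog, and developing or regenerating muscle is known for its use of cardiac and embryonic isoforms, such as Actc1, Tnnt2, Myl4 and Myh3, before the adult ones.

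Promoters of 4 members are shown because these genes carried the contrasts between cell states reported below: the adult and the cardiac alpha actin, cardiac troponin T and titin. Each is the 150 bases before the RefSeq gene start (GRCm38.p6), written 5′ to 3′ on the strand of the gene, with matches to an E-box, CArG box, MEF2 site or MCAT element in capitals. The Acta1 window was chr8:123894776-123894925 on the minus strand, Actc1 chr2:114052876-114053025 on the minus strand, Tnnt2 chr1:135836184-135836333 on the plus strand and Ttn chr2:76982548-76982697 on the minus strand.
Acta1: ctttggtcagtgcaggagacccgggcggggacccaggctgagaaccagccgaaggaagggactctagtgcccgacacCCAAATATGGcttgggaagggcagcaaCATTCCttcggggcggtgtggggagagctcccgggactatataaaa
Actc1: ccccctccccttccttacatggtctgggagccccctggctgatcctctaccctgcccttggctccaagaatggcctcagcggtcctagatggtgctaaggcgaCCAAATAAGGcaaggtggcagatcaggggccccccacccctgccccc
Tnnt2: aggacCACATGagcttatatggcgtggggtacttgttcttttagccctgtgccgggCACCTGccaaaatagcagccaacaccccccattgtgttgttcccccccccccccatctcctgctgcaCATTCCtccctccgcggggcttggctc
Ttn: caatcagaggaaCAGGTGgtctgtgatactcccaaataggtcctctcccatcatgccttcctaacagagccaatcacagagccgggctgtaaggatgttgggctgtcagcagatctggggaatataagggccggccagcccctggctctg
The capitals mark a CArG box and an MCAT element in Acta1, a CArG box in Actc1, a pair of E-boxes and an MCAT element in Tnnt2, and an E-box in Ttn. Of the 46 members, 35 had an entry in the RefSeq promoter table. Over the 250 bases before the start, on both strands and with overlaps between motifs allowed, the CArG box was found in 5 of the 35, or 14.3%, against 1.62% of 27025 genes. The E-box (CANNTG) was found in 30 members, 85.7% against 69.3%. The MCAT element (CATTCC) was found in 10, 28.6% against 14.4%, and the MEF2 site in 5, 14.3% against 3.42%. The letters TATAAA were found in 7, 20% against 14.3%. These matches describe letters and were not measured as bound sites.

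Cells were grouped by unique molecular identifiers (UMIs, counted transcript molecules) of marker genes. Fiber droplets held at least 3 UMIs and 1000 CPM (UMIs scaled to 1000000 per group or cell) of the adult myosin heavy chains (MyHC) Myh1, Myh2, Myh4 and Myh7 together. Myl4/Myh3 myocytes held at least 10 UMIs and 500 CPM of Myl4 plus Myh3, Myog cells at least 3 UMIs and 100 CPM of Myog, and MuSCs at least 1 Pax7 UMI. Pdgfra cells, which are not myogenic, held at least 3 Pdgfra UMIs and no Pax7 UMI, and gave the level of free RNA. The sham library had 426 fiber droplets, 77 MuSCs, 19 Pdgfra cells, 1 Myog cell and no Myl4/Myh3 myocyte. The MOV library had 1105 MuSCs, 204 Myog cells, 61 Myl4/Myh3 myocytes, 33 fiber droplets and 298 Pdgfra cells. Myl4 was part of the myocyte definition, so its level there is not a result, and counts are also given without it.

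Markers that were not used for grouping fitted these names in most groups. Vcam1, a MuSC surface marker and an antigen of the sort, stood at 634 CPM in sham and 642 CPM in MOV MuSCs and at 0 in sham fiber droplets. The 6 MuSC markers not used for grouping summed to 2749 CPM in sham and 2031 CPM in MOV MuSCs. They summed to 1131 CPM in MOV Myog cells, 795 CPM in myocytes, and 153 and 347 CPM in sham and MOV Pdgfra cells. Mymk, a fusion protein of myocytes, stood at 1009 CPM in the Myl4/Myh3 myocytes. Ckm, muscle creatine kinase, stood at 27547 CPM in sham and 12097 CPM in MOV fiber droplets, and at 366 and 66.5 CPM in sham and MOV MuSCs. In the 19 sham Pdgfra cells the fibro-adipogenic markers summed to 31641 CPM and the immune markers to 2930 CPM. Median depth was 1060 UMIs in MOV and 4154.5 in sham fiber droplets and 52840 in the myocytes. Both libraries held the same barcode sequence in 44 cases. In each of these pairs 1 copy had between 501 and 2057 UMIs and the other between 12279 and 173184. Among the MOV fiber droplets 10 of 33, and 8 of the 9 dominated by Myh4, were such copies, all with fewer UMIs than the sham droplet of the same barcode. In the sham library 20 fiber droplets, 7 MuSCs and 2 Pdgfra cells were the deeper copy. Values without these barcodes are given where a result rests on them.

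The members took a different share of the RNA in each cell group. They held 27.5% of the summed UMIs in sham and 21.0% in MOV fiber droplets, 4.37% in Myl4/Myh3 myocytes, 0.672% in MOV Myog cells and 0.333% in MOV MuSCs. The Pdgfra cells of the same muscles gave 0.101% in sham and 0.123% in MOV. Among single myocytes the share ran from 0.745% to 16.7% with a median of 4.32%. Fiber droplets therefore stood above every other group and the Pdgfra cells below every myogenic group. Tpm1 and Tpm2 stood at 602 and 329 CPM in MOV and at 172 and 135 CPM in sham Pdgfra cells. Connective tissue cells also express both, so the share in Pdgfra cells may hold more than free RNA. Sham MuSCs stood at 0.557%, but their per-cell median was 0.278%, and 7 of the 77 cells held 64.6% of the member UMIs.

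**Figure D1:**
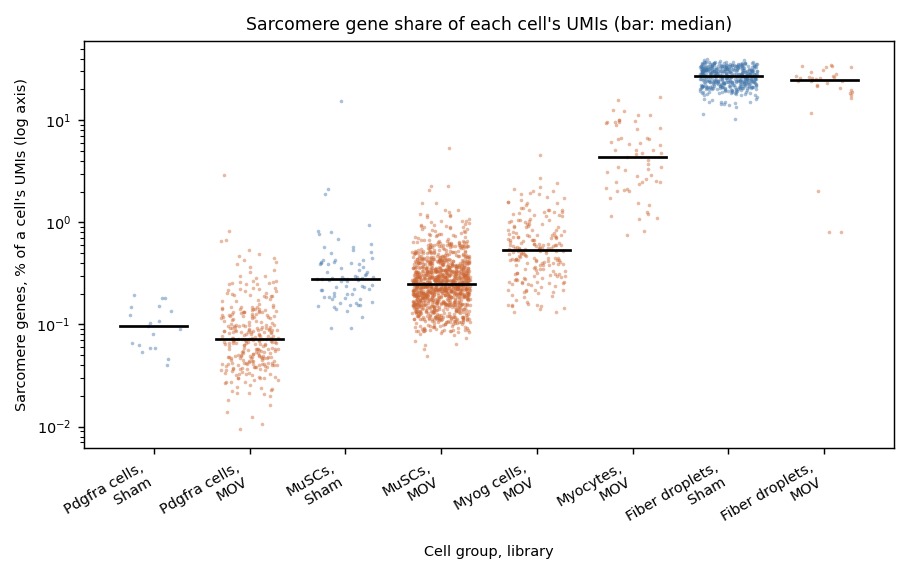
Share of each cell's UMIs that came from the 46 sarcomere genes (log axis, percent), by cell group and library (blue sham, orange MOV), with 1 point per cell and a bar at the median. Medians rise from 0.0725% in MOV Pdgfra cells to 4.32% in Myl4/Myh3 myocytes and 27.1% in sham fiber droplets.

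Against the Pdgfra cells, the fiber droplets held nearly every member at a higher level. In the sham library 41 of 43 members with at least 20 UMIs in both groups together were at least 2-fold higher and none lower, where 23.7% of all genes tested were higher. Tnnc1, Tnni1 and Tnnt2 had too few UMIs to be counted there. In the MOV library 42 of 42 were higher, against 30% of all genes, and Myl3, Mylk2, Myom1 and Synpo2l had too few UMIs. The median member log2 ratio was 5.81 in sham and 9.45 in MOV, against -0.47 and 0.08 for all genes. Medians here and below place a gene with no UMI in 1 group at the bound that 3 UMIs would give. Acta1, the adult skeletal alpha actin, was 391-fold higher in sham fiber droplets, at 52880 CPM against 135 CPM. The smallest MOV ratios belonged to Tnnt2 (log2 2.59), Myl4 (2.68), Tnnc1 (2.79), Tnnt1 (3.26) and Actc1 (3.41), all slow, cardiac or embryonic isoforms.

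**Figure D2:**
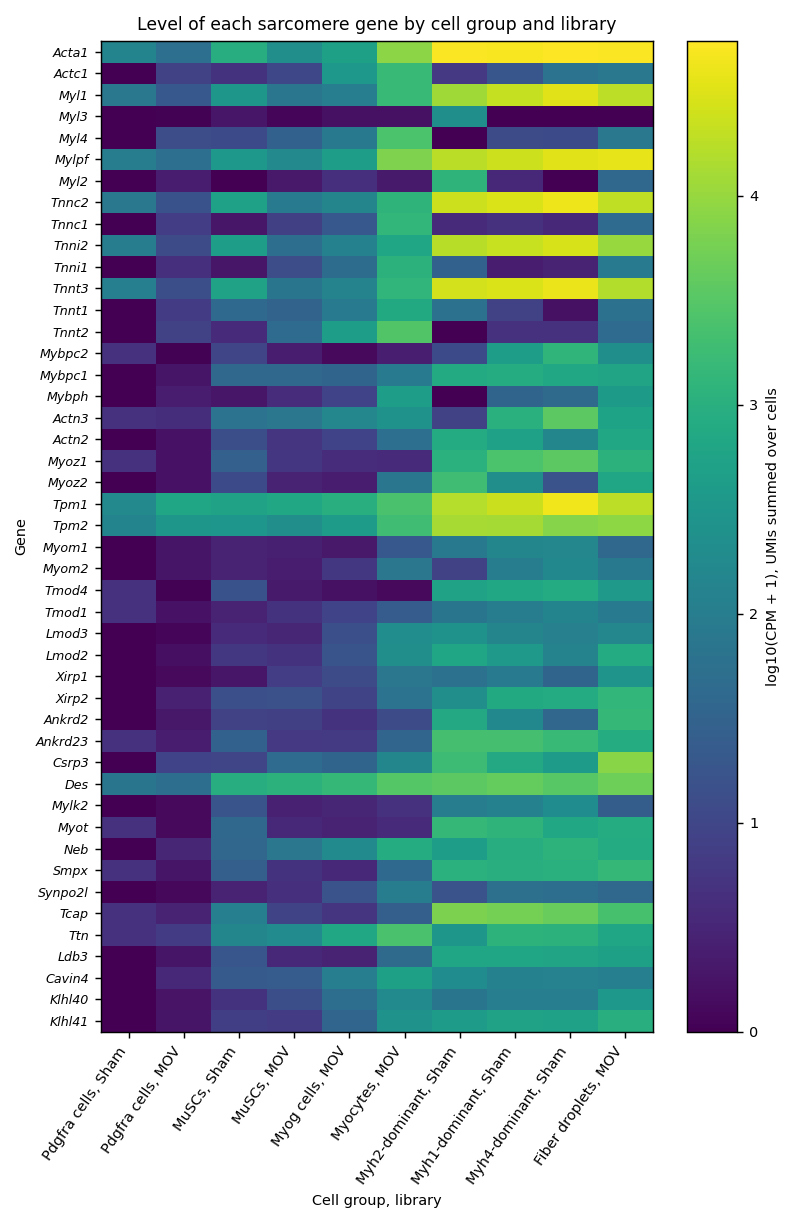
Level of each of the 46 genes (rows, ordered by role) in each cell group and library (columns), as log10(CPM + 1) of UMIs summed over the cells. Adult fast genes are highest in the fiber droplets, while Actc1, Tnnc1, Tnni1 and Tnnt2 are highest in the Myl4/Myh3 myocytes of the MOV library.

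In Myl4/Myh3 myocytes of the overloaded muscle, the thin filament carried large shares of slow and cardiac isoforms. Levels are CPM of a 3′ tag count, 1 tag per transcript and not divided by length, and isoforms with similar 3′ ends may share reads. Tnnc1, the slow and cardiac troponin C, stood at 6.92 CPM in MOV MuSCs, 19.3 in Myog cells, 1390 in myocytes and 44.0 in MOV fiber droplets. Its share of troponin C UMIs was 7.26% in MuSCs, 12.0% in Myog cells, 52.9% (51.9 to 54.0%) in myocytes and 0.00809% in sham fiber droplets. In summed UMIs the slow troponin C was thus slightly the more frequent one in myocytes, and it was nearly absent from sham fibers. The median over single myocytes was 620 CPM for Tnnc1 and 697 CPM for Tnnc2, the other order. Some alternative settings given at the end also put the Tnnc1 share below that of Tnnc2. Tnni1, the slow troponin I, rose from 12.0 CPM in MOV MuSCs to 46.3 in Myog cells and 1133 CPM in myocytes. It stood at 88.0 CPM in MOV and 5.39 CPM in sham fiber droplets. It made up 63.5% (62.3 to 64.8%) of troponin I in myocytes and 0.0214% in sham fiber droplets.

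Cardiac troponin T was already high in Myog cells. Tnnt2 stood at 44.2 CPM in MOV MuSCs, 447 CPM in Myog cells and 2832 CPM in myocytes. Its share of troponin T was 30.7% in MuSCs, 66.6% (65.4 to 67.8%) in Myog cells and 58.0% (57.2 to 58.7%) in myocytes, and 0.00929% in sham fiber droplets. Tnnt1, the slow troponin T, took 15.5% of troponin T in myocytes at 757 CPM. After each cell was thinned to 2000 UMIs, a Tnnt2 UMI was found in 4.36% of MOV MuSCs (3.23 to 5.74%), 37% of Myog cells (30.3 to 44.1%) and 87.3% of myocytes (75.5 to 94.7%). The same share was 3.36% (1.62 to 6.08%) in MOV Pdgfra cells, and its interval overlapped that of the MuSCs. The level was 6.06-fold higher in MuSCs, at 44.2 CPM (42.0 to 46.4) against 7.29 CPM (5.84 to 8.99), and 1 MuSC held 125 of their 1564 Tnnt2 UMIs. Without thinning these shares were 30.1%, 82.4%, 98.4% and 22.5%.

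The alpha actins followed a different order. Actc1, the cardiac alpha actin, stood at 9.86 CPM in MOV MuSCs, 338 CPM in Myog cells, 1623 CPM in myocytes and 41.7 CPM in sham fiber droplets. Its share of the summed alpha actin UMIs was highest in Myog cells, at 40.6% (39.5 to 41.7%), and was 16.4% in myocytes. Myog cells of the MOV library were uneven in this gene. An Actc1 UMI was found in 53.9% of them, and the median over single cells was 12.7 CPM. In the 1 sham Myog cell, whose barcode was also in the MOV library, Actc1 made up 88.2% of 76 alpha actin UMIs. Acta1 rose from 217 CPM in MOV MuSCs to 494, 8287 and 51135 CPM in Myog cells, myocytes and MOV fiber droplets. The fast troponins were present in myocytes too, with Tnnc2 at 1236, Tnni2 at 651 and Tnnt3 at 1296 CPM. They were far below sham fiber droplets, where the same genes stood at 35539, 25206 and 34820 CPM. Tpm1 and Tpm2, the alpha and beta tropomyosins, stood at 2423 and 1911 CPM in myocytes, and Tpm2 made up 44.1% of their sum there against 22.5% in sham fiber droplets.

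**Figure D3:**
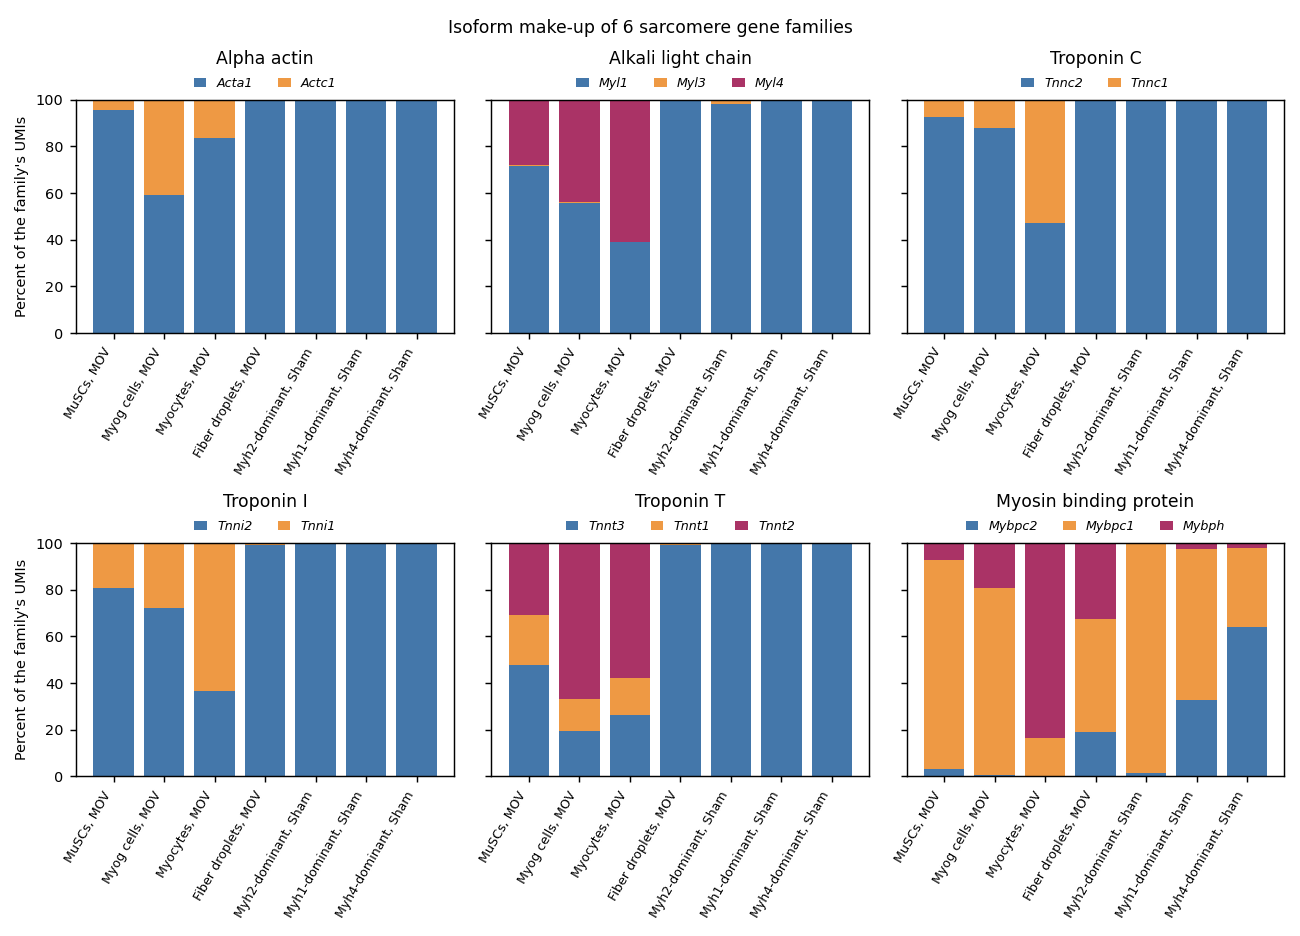
Stacked bars of each isoform's share of its family's UMIs (percent, y axis) for 6 families, in MOV MuSCs, Myog cells, Myl4/Myh3 myocytes and fiber droplets and in sham fiber droplets by dominant myosin. The shares of Tnnc1 (52.9%), Tnni1 (63.5%) and Mybph (83.7%) are highest in myocytes and those of Actc1 (40.6%) and Tnnt2 (66.6%) in Myog cells, and Myl4 helped to define the myocytes.

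On the thick filament, Mylpf, the fast regulatory light chain, stood at 6598 CPM in myocytes against 463 CPM in Myog cells and 36462 CPM in MOV fiber droplets. Its slow counterpart Myl2 had 4 UMIs in all myocytes. Myl1, the fast essential light chain, stood at 1632 CPM in myocytes. Mybph, a myosin binding protein H gene, stood at 448 CPM in myocytes, 8.08 CPM in Myog cells and 3.02 CPM in MOV MuSCs. It held 83.7% (81.9 to 85.4%) of the UMIs of its family in myocytes, while Mybpc2, the fast myosin binding protein C, had 5 UMIs there. Sham fiber droplets showed the reverse, with Mybph at 33.4 CPM and Mybpc2 at 860 CPM.

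Some structural genes were already high in myocytes. Ttn, the giant spring that spans the sarcomere, stood at 2419 CPM in myocytes and 621 CPM in MOV fiber droplets. The log2 ratio was -1.96 for droplets over myocytes. Among MOV droplets Ttn stood at 132 CPM in those dominated by Myh2 and 1062 CPM in those dominated by Myh1. Sham fiber droplets had 1024 CPM. Neb, the thin filament ruler, stood at 848 CPM in myocytes and 811 CPM in MOV fiber droplets, a ratio of -0.06. Des, the intermediate filament protein of the Z-disc, stood at 1092 CPM in MOV MuSCs, 1429 in Myog cells, 3169 in myocytes and 4990 in MOV fiber droplets. Klhl41, a chaperone-like protein of nebulin, stood at 5.96, 33.6, 260 and 963 CPM along the same groups, and Cavin4 at 22.6, 108, 488 and 112 CPM.

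Other Z-disc genes were low in myocytes and high in fiber droplets. Tcap, the titin cap, had 26.1 CPM in myocytes and 2331 CPM in MOV fiber droplets. Myoz1, the fast fiber calsarcin, had 2.76 and 1119 CPM. Myot had 2.76 and 870 CPM, and Tmod4, a thin filament pointed-end cap, 0.307 CPM (1 UMI) and 362 CPM. In these 4 genes the droplets exceeded the myocytes by log2 6.48, 8.66, 8.30 and 10.20. The related Myoz2 and Tmod1 were also lower in myocytes than in MOV fiber droplets, at 70.6 against 645 CPM and 23.3 against 92.9 CPM. With Myoz1 and Tmod4 near 0 in myocytes, Myoz2 held 96.2% of the Myoz1 and Myoz2 UMIs there and Tmod1 98.7% of the Tmod1 and Tmod4 UMIs.

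**Figure D4:**
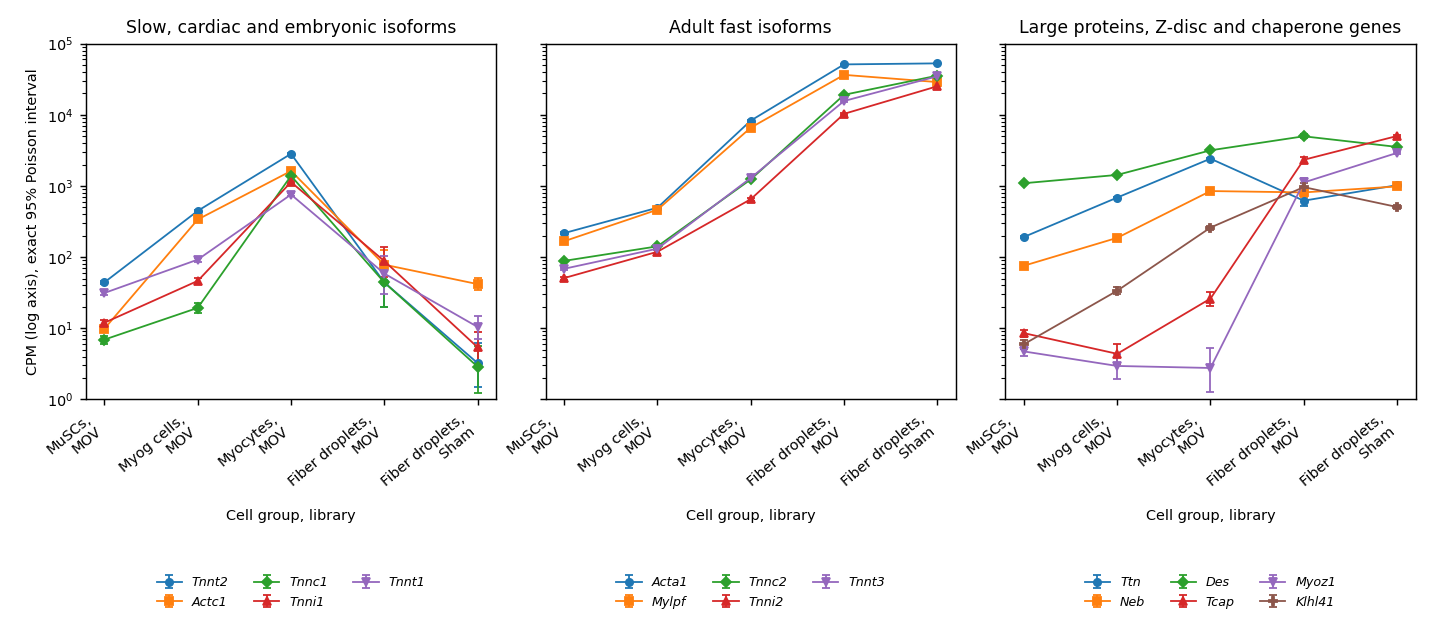
Levels (CPM, log axis) of 5 slow or cardiac isoforms, 5 fast ones and 6 structural or chaperone genes (panels from left to right) in MOV MuSCs, Myog cells, Myl4/Myh3 myocytes and fiber droplets of both libraries, with exact Poisson 95% intervals. The slow and cardiac isoforms peak in myocytes, whereas the fast isoforms, Tcap and Myoz1 are highest in fiber droplets.

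Counted over the list, fewer members were higher in Myog cells over MuSCs than in myocytes over Myog cells. In Myog cells 22 of 45 members were at least 2-fold higher than in MuSCs (21 without Myl4) and 1 lower, where 3.56% of all genes were higher and 6.51% lower. The calls of Acta1, Myl2 and Tmod1 were lost without the Myog cell with most UMIs of the gene. The member median log2 ratio was 0.94 against -0.08 for all genes. Actc1 had the highest ratio at 5.10 (4.94 to 5.26), followed by Tnnt2 at 3.34, Lmod3 at 2.54, Klhl41 at 2.50 and Cavin4 at 2.25. Mybpc2 was the 1 member lower, with 3 UMIs against 50, a ratio of -2.11 (-4.43 to -0.48). Of the other sarcomere genes on a second list of 28, 5 of 23 tested were higher and 2 lower, with Unc45b, a myosin chaperone, at 3.26, Myo18b at 2.81 and Myh3 at 2.81.

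Between Myog cells and myocytes 38 of 43 members were higher (37 without Myl4) and 1 was lower, where 6.48% of all genes were higher and 9.26% lower. The median was 2.71 against -0.15. Tnnc1 led at 6.17 (5.95 to 6.39), with Mybph at 5.79, Myoz2 at 5.64 and Tnni1 at 4.61. Myl2 was the member lower, with 4 against 33 UMIs and a ratio of -1.55 (-3.51 to -0.06). A single Myog cell held 22 of the 33, and without it the ratio was 0.02, so the call was lost. Actn3, the fast alpha actinin, was higher by 0.84, which is under 2-fold. The second list had 21 of 26 higher and 1 lower, led by the embryonic and perinatal genes Myh8 at 6.87 and Myh3 at 5.65 and by Myom3 at 5.66, and Myh3 was used to define the group.

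Set directly against MuSCs, myocytes had 39 of 45 members higher (38 without Myl4) and 1 lower, where 9.46% of all genes were higher and 18.3% lower. The median was 3.66 against -0.20. The highest were Tnnc1 at 7.65 (7.46 to 7.84), Actc1 at 7.36, Mybph at 7.21, Tnni1 at 6.57 and Lmod3, an actin nucleator, at 6.53. The lowest were Tmod4 at -1.95, with 1 UMI against 42 and an interval from -7.29 to 0.61, and Myoz1 at -0.77 (-1.93 to 0.19). Neither interval excluded 0. The second list had 20 of 26 higher and 1 lower.

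From myocytes to fiber droplets of the MOV library 28 of 43 members were higher and 9 lower (8 without Myl4), where 13.9% of all genes were higher and 25.7% lower. The member median was 2.21 against -0.28. Lower members were Tnnt2 at -6.01 (-7.14 to -5.08), Tnnc1 at -4.98, Actc1 at -4.38, Tnnt1 at -3.69, Tnni1 at -3.69, Cavin4 at -2.12, Ttn at -1.96 and Synpo2l at -1.40. The members lower in fiber droplets thus included each slow or cardiac isoform of the thin filament. The 7 MOV barcodes that met both the fiber and the myocyte definition were in neither group. Fiber droplets with that much Myl4 and Myh3 were therefore taken out before this comparison. The 9 MOV barcodes left out as mixed held Tnni1 at 2974, Tnnt2 at 2947 and Actc1 at 3219 CPM. The part of this rule in the ratios was not tested. The second list had 15 of 26 higher and 5 lower, with Myh2 at 9.62, Myh3 at -6.50 and Myh4 at 6.30, all of which took part in the group definitions.

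Within the 204 Myog cells the levels were also read by their UMIs of Myl4 plus Myh3, which were below the myocyte limit. There were 103 cells with 0 or 1 such UMI, 50 with 2 to 4 and 51 with at least 5, with median depths of 31032, 40592 and 58778 UMIs. Depth therefore rose with the bin, and its part in the pattern was not tested. Tnnt2 stood at 260, 363 and 746 CPM, Actc1 at 238, 357 and 449 CPM and Ttn at 391, 554 and 1161 CPM. Cavin4 went from 32.5 to 83.4 and 221 CPM and Klhl41 from 8.91 to 24.2 and 72.0 CPM. Tnnc1 was low in the first bins, at 9.95 and 5.2 CPM, and stood at 42.0 CPM in the last. Tcap did not rise, at 5.76, 4.8 and 2.3 CPM.

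In sham fiber droplets the isoforms differed by dominant myosin, the MyHC with over 50% of the adult MyHC UMIs. There were 257 droplets dominated by Myh4 (the fast glycolytic type 2B myosin), 120 by Myh1 (type 2X) and 43 by Myh2 (type 2A). Actn3, the alpha actinin of fast glycolytic fibers, stood at 3459 CPM in Myh4-, 1019 CPM in Myh1- and 7.80 CPM in Myh2-dominant droplets. Actn2 took the rest, with 4.18%, 34.1% and 99.1% of the alpha actinin UMIs. Mybpc1, the slow myosin binding protein C, held 33.9%, 64.7% and 98.7% of its family, and Myoz2 0.434%, 8.29% and 65.2% of the Myoz1 and Myoz2 UMIs. Tpm2 held 15.0%, 35.3% and 44.1% of the tropomyosin UMIs. In each of these families the Myh1-dominant droplets lay between the other groups.

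Between Myh4- and Myh2-dominant droplets 12 of 42 members were at least 2-fold higher and 10 lower, where 13% of all genes were higher and 14.1% lower. The median was 0.44 against -0.08. The highest were Actn3 at 8.79 (7.24 to 11.1), Mybpc2 at 6.93, Myom2, an M-band protein, at 4.39 and Actc1 at 3.59. In the Myh4-dominant droplets 1 droplet held 48 of the 100 Actc1 UMIs, and without it the Actc1 ratio was 2.67. The lowest with UMIs in both groups were Myoz2 at -6.98 (-7.62 to -6.41), Tnnt1 at -6.51 with 1 UMI against 22, and Ankrd2, a stretch-responsive Z-disc protein, at -4.36. Acta1 differed by 0.11 only. Between Myh4- and Myh1-dominant droplets 3 of 40 members were higher and 5 lower, against 4.67% and 7.17% of all genes. Those higher were Actc1 at 1.81, Actn3 at 1.76 and Mybpc2 at 1.55, and those lower Myoz2 at -3.83, Ankrd2 at -2.19, Actn2 at -1.80, Lmod2 at -1.53 and Xirp1 at -1.45. Without the droplet named above the Actc1 ratio was 0.89, under 2-fold. The second list had 6 of 21 higher and 3 lower in the comparison with Myh2-dominant droplets.

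**Figure D5:**
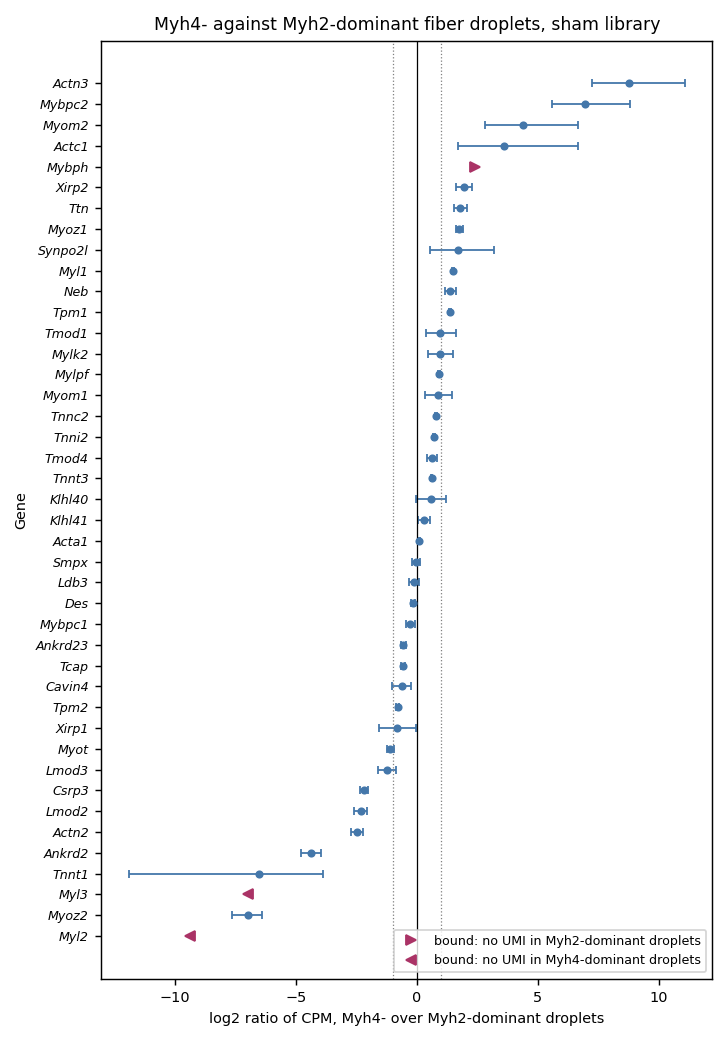
Log2 ratio of each member between Myh4- and Myh2-dominant fiber droplets of the sham library (x axis, genes as rows), with exact conditional 95% intervals and bounds marked where 1 group had no UMI. Actn3 and Mybpc2 lie farthest toward Myh4 and Myl2, Myoz2 and Myl3 farthest toward Myh2.

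The slow light chains were found in a few droplets. Myl2 and Myl3, the slow regulatory and essential light chains, had 477 and 90 UMIs in Myh2-dominant and 0 in Myh4-dominant sham droplets, so Myl2 was lower in the latter by at least 9.37 on the log2 scale. Only 10 of the 43 Myh2-dominant droplets had a Myl2 UMI, and 3 of them held 443 of the 477, or 92.9%. The 3 droplets had 257, 140 and 46 Myl2 UMIs and 10, 66 and 7 Myl3 UMIs. The same 3 droplets had 698, 401 and 124 UMIs of the fast chain Mylpf and 948, 264 and 89 of fast Tnni2. Myh7, the slow myosin, had 0 UMIs in all 10. The fast chain was thus present beside the slow chain in each.

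In fiber droplets the MOV library was compared with the sham library. Of 44 members, 9 were at least 2-fold higher and 12 lower in MOV, where 24.3% of all genes were higher and 11.8% lower. The median was -0.27 against 0.25 for all genes. The 9 were Tnni1, Mybph, Csrp3, Myl4, Ankrd2, Tnnt1, Xirp1, Klhl40 and Lmod2, and without the 10 shared barcodes there were again 9 higher and 12 lower. When the shared barcodes were left out of both libraries the counts were 12 and 12. The second list had 7 of 23 higher and 6 lower.

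Csrp3, the muscle LIM protein of the Z-disc, stood at 686 CPM (656 to 717) in sham and 7977 CPM (7594 to 8373) in MOV fiber droplets, a log2 ratio of 3.54 (3.44 to 3.64). A Csrp3 UMI was found in 23.9% of sham and 69.7% of MOV droplets, without thinning and over unlike mixes of droplet types. In Myh1-dominant droplets, shallower in MOV, the sham and MOV shares were 36.7% and 87.5%. In Myh2-dominant ones, deeper in MOV, they were 81.4% and 100%. Over all MOV fiber droplets, the droplet with most Csrp3 UMIs held 41.7% of them, and the level without it was 5538 CPM. Ankrd2 stood at 170 CPM in sham and 1417 CPM in MOV, a ratio of 3.06 (2.84 to 3.27), and Mybph at 33.4 and 391 CPM, a ratio of 3.55 (3.10 to 3.99). Without the 10 shared barcodes Csrp3, Ankrd2 and Mybph stood at 8238, 1466 and 404 CPM in MOV. Xirp1, a protein of the intercalated disc and of damaged sarcomeres, stood at 51.8 and 279 CPM, Klhl40 at 102 and 342 CPM and Lmod2 at 270 and 821 CPM. Over all fiber droplets of each library, sham and MOV intervals did not overlap for any of these 6 genes.

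The make-up of the droplets by dominant myosin differed between the libraries. There were 257, 120 and 43 Myh4-, Myh1- and Myh2-dominant droplets in sham and 9, 16 and 7 in MOV. Levels of summed UMIs weight each droplet by its depth. Median depth in the same order was 3775, 4297.5 and 6071 UMIs in sham and 673, 2229 and 13197 in MOV. The MOV groups held 13316, 86636 and 98511 UMIs, so the Myh2-dominant droplets weighed most there. Within Myh2-dominant droplets Csrp3 stood at 1791 CPM in sham and 11126 CPM in MOV, and within Myh1-dominant ones at 718 and 4236 CPM. In MOV 1 droplet held 681 of the 1096 Csrp3 UMIs of the Myh2-dominant and 1 held 243 of the 367 of the Myh1-dominant droplets. The median over droplets was 945 CPM in sham and 5213 CPM in MOV for Myh2-dominant, and 0 and 1896 CPM for Myh1-dominant ones. Ankrd2 stood at 733 and 1888 CPM in the Myh2-dominant and 163 and 993 CPM in the Myh1-dominant droplets. Both genes were therefore higher in MOV within each of these types. So were Mybph, Xirp1 and Klhl40, with counting intervals that did not overlap. These also rested in part on single droplets. In the Myh2-dominant MOV droplets 1 droplet held 14 of 18 Mybph, 24 of 36 Xirp1 and 20 of 28 Klhl40 UMIs. For Ankrd2 1 droplet held 98 of 186 UMIs in the Myh2-dominant and 1 held 53 of 86 in the Myh1-dominant MOV droplets. Lmod2 stood at 642 and 1249 CPM in the Myh2-dominant droplets, where 1 MOV droplet held 73 of 123 UMIs. In the Myh1-dominant ones its intervals overlapped, at 372 CPM (331 to 417) in sham and 485 CPM (349 to 655) in MOV. Leaving out shared barcodes left 6 Myh2-dominant MOV droplets with Csrp3 at 11173 CPM, 15 Myh1-dominant ones with 4270 CPM, and 1 Myh4-dominant one. The MOV value for Myh4-dominant droplets thus came almost wholly from barcodes that were also in the sham library, and it is not compared.

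Among the lower members Actn3 stood at 2284 CPM in sham and 572 CPM in MOV (a log2 ratio between -2.27 and -1.73), Mybpc2 at 860 and 230 CPM (-1.90), and Mylk2, Myl2 and Myom1 at -2.75, -2.14 and -1.86. Within Myh2-dominant droplets Actn3 went the other way, with 7.80 CPM (3 UMIs) in sham and 233 CPM (23 UMIs) in MOV. Within Myh1-dominant droplets it was lower in MOV, at 635 CPM (478 to 826) against 1019 CPM. The fast troponins Tnnc2, Tnni2 and Tnnt3 were lower there too. They stood at 29643, 22191 and 30021 CPM in sham and 14948, 6325 and 10781 CPM in MOV Myh1-dominant droplets. Tcap, Myl1, Tpm1 and Tpm2 were lower in these droplets as well, while Csrp3, Ankrd2, Mybph, Xirp1 and Klhl40 were higher. The Actn3 difference was therefore not particular to Actn3 or to the fast troponins. The pooled Actn3 value moved with the share of Myh4-dominant droplets, and that share's part in it was not tested. Acta1 stood at 52880 and 51135 CPM, a ratio of -0.05.

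The slow and embryonic isoforms of the MOV droplets rested on few UMIs. Tnni1 had 18 UMIs in MOV and 15 in sham (4.03, from 2.96 to 5.12), Myl4 16 and 26 (3.06) and Tnnt1 12 and 29 (2.49). The MOV droplet with most Tnni1 UMIs held 15 of the 18, and without it the level was 17.5 CPM. Macrophage RNA also differed, since the immune markers Ptprc, Cd68, Lyz2, C1qa and C1qb summed to 2121 CPM in MOV fiber droplets. They summed to 4871 CPM in the Myh1-dominant and 102 CPM in the Myh2-dominant MOV droplets. All 124 C1qa UMIs lay in 1 droplet. In sham droplets these markers summed to 12.2 CPM. Fibro-adipogenic markers went from 4.67 CPM in sham to 587 CPM in MOV droplets, MuSC markers not used for grouping from 24.4 to 347 CPM and differentiating myocyte markers from 21.2 to 161 CPM. Erythroid markers went from 401 CPM to 0, and the part of these lists in the member ratios was not tested. Without the droplets that held any C1qa, C1qb or Ptprc UMI, 12 members were higher and 8 lower in MOV.

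MuSCs held most members above the Pdgfra cells of the same library. In MOV 38 of 45 members were at least 2-fold higher in MuSCs and none lower, where 15% of all genes were higher and 19.2% lower. The median was 2.46 against 0.10. Mybpc1 led at 5.49 (4.61 to 6.55), then Ttn at 5.09 (4.75 to 5.46), Neb at 5.06, Actn3 at 4.61 and Des at 4.43 (4.32 to 4.55). Ttn stood at 192 CPM against 5.61 CPM and Des at 1092 against 50.6 CPM. The lowest ratios were Tpm2 at -0.59 (-0.65 to -0.54), Myl2 at -0.32, Tnnc1 at 0.12, Tpm1 at 0.15 and Actc1 at 0.42. After thinning to 2000 UMIs, a Ttn UMI was found in 18.3% of MOV MuSCs (16.1 to 20.8%) and in 0.671% of Pdgfra cells (0.0814 to 2.40%). The second list had 9 of 22 higher and 3 lower, with the methyltransferase Smyd1 at 4.62, Pdlim3 at 3.75 and Nrap at 3.10.

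In the sham library 19 of 20 members were higher in MuSCs, where 22.3% of all genes were higher. The median was 2.52 against 0.13. Ttn led at 5.34, with 154 UMIs against 1, followed by Tcap at 4.90, Actn3 at 4.12, Des at 3.71 and Myot at 3.40. Of the 154 Ttn UMIs 120 came from the 7 deep MuSCs whose barcodes were also in the MOV library, where Ttn stood at 341 CPM against 49.5 CPM in the other 70. Without the shared barcodes the Ttn ratio was a bound of at least 1.60, since the Pdgfra cells then had no Ttn UMI. When only the 50 sham MuSCs without any adult MyHC UMI were used, 7 of 13 members tested were at least 2-fold higher. Leaving out the MuSC with most UMIs of the gene ended 7 of the 19 calls, those of Myl1, Mylpf, Myot, Smpx, Tnni2, Tnnt3 and Tpm2.

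Several fast fiber genes of MuSCs stood to Acta1 much as they did in fiber droplets. Per Acta1 UMI, MOV MuSCs differed from MOV fiber droplets by log2 -0.11 for Myl1, 0.11 for Mylpf, 0.12 for Tnnc2, 0.21 for Tnni2, 0.04 for Tnnt3 and -0.22 for Tcap. In MOV Pdgfra cells the same differences were 0.00 for Myl1, 0.44 for Mylpf, -0.43 for Tnnc2, 0.04 for Tnni2, -0.37 for Tnnt3 and -0.28 for Tcap. These 6 genes were within 2-fold of the fiber ratio in both groups, but fast Actn3 was not, at 4.96 in MuSCs and 2.37 in Pdgfra cells. Other members were also in excess of that ratio in MOV MuSCs, with Ttn at 6.18, Des at 5.69, Neb at 4.45 and Mybpc1 at 3.92. Of 38 members with at least 10 UMIs on both sides 18 were at least 2-fold above the fiber ratio and none below. In MOV Pdgfra cells it was 13 of 27, and Ttn, Des, Neb and Actn3 were among them too. Tpm2 stood at 5.15 and Tpm1 at 4.94 there, and smooth muscle and connective tissue cells also express both.

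Between the libraries MuSCs had 11 of 45 members at least 2-fold higher and 18 lower in MOV, where 10.6% of all genes were higher and 15.2% lower. The median was -0.30 against 0.03. With doubled group minimums 9 were lower, and Mylpf, Actn2, Ldb3 and Myoz2 changed sign. Without the cell with most UMIs of the gene, 7 of the 29 calls were lost, those of Acta1, Actn2, Mylpf, Myoz2, Smpx, Tmod4 and Ldb3. The lowest were Myot at -3.99, Tcap at -3.67 (-3.99 to -3.35), Tmod4 at -3.60, Mylk2 at -3.25 and Tnni2 at -3.18. Of these only Tnni2 had more than 1 UMI in sham Pdgfra cells. It was lower in MOV there too, at 98.7 CPM in sham and 11.1 CPM in MOV Pdgfra cells. The part of free RNA in the MuSC ratios was not tested. The sham MuSC with most UMIs of the gene held 324 of 477 for Tnni2 and 33 of 40 for Myot. Acta1 stood at 904 CPM in sham and 217 CPM in MOV, a ratio of -2.06 (-2.15 to -1.96). A single sham MuSC held 627 of the 939 Acta1 UMIs, or 66.8%, and without it the sham level was 305 CPM and the ratio -0.49. For Tmod4 a single sham cell held 14 of 15 UMIs. In the 50 sham and 831 MOV MuSCs with no adult MyHC UMI Acta1 stood at 234 and 151 CPM.

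The highest were Tnnt2 at 3.94 (2.39 to 6.22), with 1564 UMIs in MOV and 3 in sham, Tnni1 at 3.63, Tnnc1 at 2.85 and Xirp1 at 2.73, each of these last with 1 sham UMI, and Csrp3 at 2.37. Among MuSCs without adult MyHC UMIs Tnnt2 stood at 3.0 CPM in sham and 44.3 CPM in MOV. In Pdgfra cells Tnnt2 had 0 UMIs in sham, where 3 UMIs would be 10.96 CPM, and 7.29 CPM in MOV, so no difference was detectable there. Ttn stood at 148 and 192 CPM and Des at 907 and 1092 CPM, and neither ratio reached 2-fold. Without the shared barcodes the MOV over sham ratio of Ttn was 1.96, because its sham level was then 49.5 CPM, while that of Des was 0.35.

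Barcodes that met more than 1 definition were left out of all groups above. In the MOV library 7 met both the fiber and the myocyte definition, with a median of 47860 UMIs, and members held 11.9% of their UMIs. Tnni1 made up 49.9% of troponin I in them, Tnnt2 30.3% of troponin T, Actc1 13.6% of alpha actin and Mybph 77.7% of its family. For the thin filament these shares lay between those of myocytes and MOV fiber droplets. A barcode can hold more than 1 cell, and whether these did was not tested.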

How the data were processed

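Gene counts were deposited by the authors as raw UMI counts per barcode, made with Cell Ranger 6.0.0 on mm10 with Ensembl release 98, per the submitters' processing notes, which also name Seurat 4.0.2 in R 4.0.2. They are 3′ counts, so levels are not divided by transcript length, and near-identical paralogs can lose or share reads. The sham library held 1100 barcodes and 7302661 UMIs and the MOV library 3854 barcodes and 88498487 UMIs. Here barcodes with at least 10% mitochondrial UMIs were removed (362 in sham, 794 in MOV), and the rest were grouped by marker UMIs. No doublet caller was run, and barcodes that met more than 1 definition (9, all in MOV) were left out.

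UMIs were summed per group and library and given as CPM of all UMIs of the group. Intervals are exact at 95%: Poisson for levels, Clopper-Pearson for shares and conditional binomial for ratios. A gene was tested against the fold of 2 where both groups together had at least 20 UMIs, and a group with 0 was set to 3 UMIs as a bound. Cells were thinned to 2000 UMIs for shares of cells with a UMI. The labels describe the source as a mouse and the methods pool muscles, so the number of animals behind each library is not given here.

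The members, gene lists, groups and named-gene rule were chosen with earlier results of these data known. That rule named the 5 highest and 5 lowest members per comparison, the isoform families, members at least 2-fold higher in MuSCs than in Pdgfra cells, and up to 3 genes of a list of 28 other sarcomere genes. A simulation of the myocyte and MuSC groups over 12907 genes drew counts from the same counting model as the intervals, without spread between cells. It therefore cannot show how the intervals hold under that spread. The interval held the true value in 96.4% of unchanged genes, of which 2.88% were called lower and 1.32% higher. A 4-fold rise was called in 100% of genes and a 4-fold fall in 86%. A 2-fold rise was called in 50% and a 2-fold fall in 48%. Alternatives were the mitochondrial limit, group minimums, the myocyte definition, the dominant myosin share, scaling by edgeR 4.0.16 (TMM) or DESeq2 1.42.0 (median of ratios) in R 4.3.3, means over cells, the gene minimum and the thinning depth. Chosen after seeing the data were MuSCs without adult MyHC UMIs, fiber droplets without macrophage UMIs, and leaving out both copies or the shallower copy of barcodes shared by the libraries, as well as leaving out the cell with most UMIs of a gene. Python 3.11.15, numpy 2.4.6, pandas 2.3.3, scipy 1.17.1 and matplotlib 3.10.9 were used.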

Additional observations from a re-analysis of the deposited data

Results flagged for a closer look

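Members also had signal in barcodes outside the groups, above the 0.101% of UMIs in sham and 0.123% in MOV Pdgfra cells. They held 5.73% of the UMIs of the 215 sham barcodes in no group, 2.33% of the 362 sham barcodes over the mitochondrial limit, 0.271% of the 1350 MOV barcodes in no group, 0.687% of the 794 MOV barcodes over the limit and 10.9% of the 9 MOV barcodes that met more than 1 definition. A member share of at least 10% was found in 78 of the 215 ungrouped sham barcodes, whose median depth over all 215 was 1767.5 UMIs, and in 69 of the 362 removed ones. In MOV it was 23 of 1350 and 3 of 794.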

How the results depend on the processing

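Of the counts and shares that answer a comparison, 266 values under the alternatives stayed within 1.5 times the reported count or within its interval and 32 did not, and for single members 3605 stayed, 1026 moved out of the counting interval and 11 changed sign. Members at least 2-fold lower numbered 3 in sham fiber droplets against Pdgfra cells with no gene minimum. For myocytes against MuSCs they were 3 with myocytes set by Myh3 alone, 2 by means of cells and 0 at a minimum of 50 UMIs. For Myog cells against MuSCs they were 2 at a mitochondrial limit of 5%, 2 with Myh3 alone and 3 by means of cells, and for myocytes against Myog cells 2 with Myh3 alone, 2 with no minimum and 0 at 50 UMIs. In sham MuSCs against Pdgfra cells 9 were higher with doubled group minimums, 7 without adult MyHC UMIs and 12 at 50 UMIs, and 13 were lower with no minimum. With doubled minimums 9 were lower in MOV than in sham MuSCs, and 5 were higher in Myh4- than in Myh1-dominant droplets at a dominance of 80%. In myocytes the Actc1 share was 18.2% at the 5% limit and 15.7% with doubled minimums. Tnnc1 was 47.3% and 49.96% there and 51.0% with Myh3 alone, Tnni1 61.4%, 60.8% and 62.2%, and Tnnt2 53.5% with doubled minimums and 51.5% with Myh3 alone. Cells with a Tnnt2 UMI were 30.1% of MuSCs without thinning and 8.55% at 4000 UMIs, 82.4% and 49.0% of Myog cells, and 98.4% of myocytes and 22.5% of Pdgfra cells without thinning. Signs changed for Tpm2 in sham MuSCs against Pdgfra cells without adult MyHC UMIs (-0.046). In MOV against sham MuSCs they changed for Actn2 (1.48 with doubled minimums, 0.93 without MyHC), Mylpf (0.37 and 0.13), Mybph (-0.69 doubled, -0.52 without shared barcodes), Myl2 (0.19 with no mitochondrial limit), Myoz2 (0.36) and Ldb3 (0.74), both with doubled minimums. Myl3 changed in fiber droplets (0.35, doubled). The cause of these changes was not tested. TMM moved the log2 ratios by -0.67 in sham fiber droplets against Pdgfra cells up to 0.21 in MOV against sham fiber droplets. No paired analysis was possible because each condition had 1 library, and both carry only replicate number 1. Leaving out the cell or droplet with most UMIs of a gene in the higher group ended between 0 and 7 calls per comparison, 7 in each of the comparisons with sham MuSCs.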
